A study of Danio rerio with 12 samples.

Results

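Of the 153 distinct genomic fragments that the authors' deposited tables list as differing in DNA methylation after triclosan, 5 carry the name of a gene chosen here from mitochondrial respiration, pyrimidine synthesis, protein import or carnitine uptake. They were found by their assigned gene name, which was uqcrc2a, dhodh, slc22a5, dnajc19 or DNAJC30 (2 of 2), 1 fragment for each of these 5 genes. A fragment's entry is its line in 1 table, and 2 of the fragments have an entry in 2 tables, which gives 7 entries of 171. The members were chosen by their methylation differences, since the tables hold only fragments that the authors listed for the contrasts described below. Their differences are therefore a description. The authors' p values, and the intervals, adjusted values and limits computed from them, describe the size and spread of these chosen differences and are no independent evidence.

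The animals were zebrafish larvae of the AB strain, 7 days post-fertilisation, raised singly in wells at 26.5 °C. From the egg on, they spent 7 days as controls (4 libraries), with no vehicle named in the labels, or in triclosan, an antibacterial agent of consumer products, at 50 µg/L (4 libraries) or 100 µg/L (4 libraries). Each library was made from a pool of 24 whole larvae, and 4 of the 6 pools sampled in each condition were used. The assay was reduced representation bisulfite sequencing, in which DNA is cut at CCGG by MspI and a methylated cytosine resists conversion by bisulfite. A whole larva mixes many cell types, so another share of cell types and another level of methylation within cells cannot be told apart. Whether different pools stem from different clutches is not stated, and p values here measure the spread between pools only.

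Mitochondria make ATP by passing electrons along a chain of protein complexes in their inner membrane. Complex III takes electrons from the carrier ubiquinol and hands them to cytochrome c. Long-chain fatty acids, which yolk-fed and newly feeding larvae burn, need carnitine to enter the organelle. Most mitochondrial proteins are imported from the cytosol by a motor driven by an Hsp70 chaperone, which J-domain proteins stimulate. CpG methylation within a gene body or far from a gene has no fixed relation to that gene's expression, and expression was not analysed here.

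At the respiratory chain, the fragment in uqcrc2a had a far lower level at the higher dose. The gene encodes a core subunit of complex III. Its fragment (chromosome 3, 59042926 to 59043000, build Zv9) is 75 bp long with 5 CpG sites and lies in an intron, 44.3% of the way along the gene from its lower coordinate. In the authors' deposited table the level was 14.4% at 100 µg/L and 53.7% at 50 µg/L. This is a difference of -39.3 percentage points (standard error 6.40, 95% interval -55.8 to -22.9), from 4 libraries at 100 µg/L and 3 at 50 µg/L. It was the largest of the 99 differences listed between both doses, where the median size was 17.2 points. Its unadjusted p of 0.00166 in the authors' deposited table was under the threshold that the table gives for its rank, 0.00380.

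Values of single libraries were not analysed here, but the authors' F statistic limits them, if it was computed on unweighted means of libraries. Under that condition, uqcrc2a had at most 30.6% in each library at 100 µg/L and at least 38.4% in each library used at 50 µg/L, so the libraries of both doses cannot overlap. Of all 99 fragments listed between both doses, 52.5% had libraries that cannot overlap by the same calculation. For given library numbers the outcome depends on F alone. Here and below it therefore restates the authors' F test and is no further evidence. The spread between libraries of a group, a pooled SD of 8.38 points, was above the median of 6.40 points in that table. The fragment was listed against control at neither dose, and its control level was not analysed here. Any control level would lie at least 19.7 points from that of 1 of the doses, and every entry listed in the tables differs by 15 points or more. Listed entries also had low p: the highest unadjusted p of the authors' F test was 0.0367 for 50 µg/L against control. For 100 µg/L against control it was 0.0201. The number of control libraries that covered this fragment was not analysed here, and why it was not listed against control was not tested.

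A second complex III gene, uqcrfs1, which encodes the Rieske iron-sulfur protein, was also assigned a fragment between both doses, with the opposite direction. That fragment (chromosome 7, 46308841 to 46308977) lies outside the gene, 147 kb from it, and is 137 bp long with 4 CpG sites. In the authors' deposited table it had 81.1% at 100 µg/L and 63.9% at 50 µg/L, 3 libraries each, a difference of 17.2 points (standard error 4.62, 95% interval 4.39 to 30.03). Its unadjusted p of 0.0203 was above the threshold for its rank, 0.0160. The fragment assigned to uqcrfs1 thus had a higher level, and that in uqcrc2a a lower one, at 100 µg/L than at 50 µg/L. At a distance of 147 kb the name uqcrfs1 is a label of position.

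The fragment of dhodh was more methylated after the higher dose. The gene encodes dihydroorotate dehydrogenase, an inner-membrane enzyme of pyrimidine synthesis that passes its electrons to the same quinone pool that complex III draws on. The fragment (chromosome 7, 57791363 to 57791532) is 170 bp long with 9 CpG sites, the longest of the 5, and lies in an intron 89.0% of the way along the gene from its lower coordinate. In the authors' deposited table it had 71.1% at 100 µg/L and 55.0% in controls, a difference of 16.1 points (standard error 3.32, 95% interval 7.61 to 24.7), from 4 libraries at 100 µg/L and 3 controls. The authors' deposited table gives it an unadjusted p of 0.00462. With the F statistic read as above, each library lay between 62.7% and 79.5% at 100 µg/L and between 47.0% and 62.9% in controls. These limits have a narrow stretch in common, but both groups cannot reach it at once, so the libraries cannot overlap, as held for 76.5% of the 17 fragments listed for this comparison. Its pooled SD of 4.35 points was the third lowest of the 17 fragments listed for 100 µg/L against control. Sequencing read 100 bp from 1 end, per the labels' protocols, so no single read spans a fragment of this length. Whether reads starting at either end of the fragment together covered it was not analysed here. How many of its CpG sites entered the level was not analysed either. The same limit holds for the fragments assigned to dnajc19 (132 bp) and uqcrfs1 (137 bp).

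**Figure D1:**
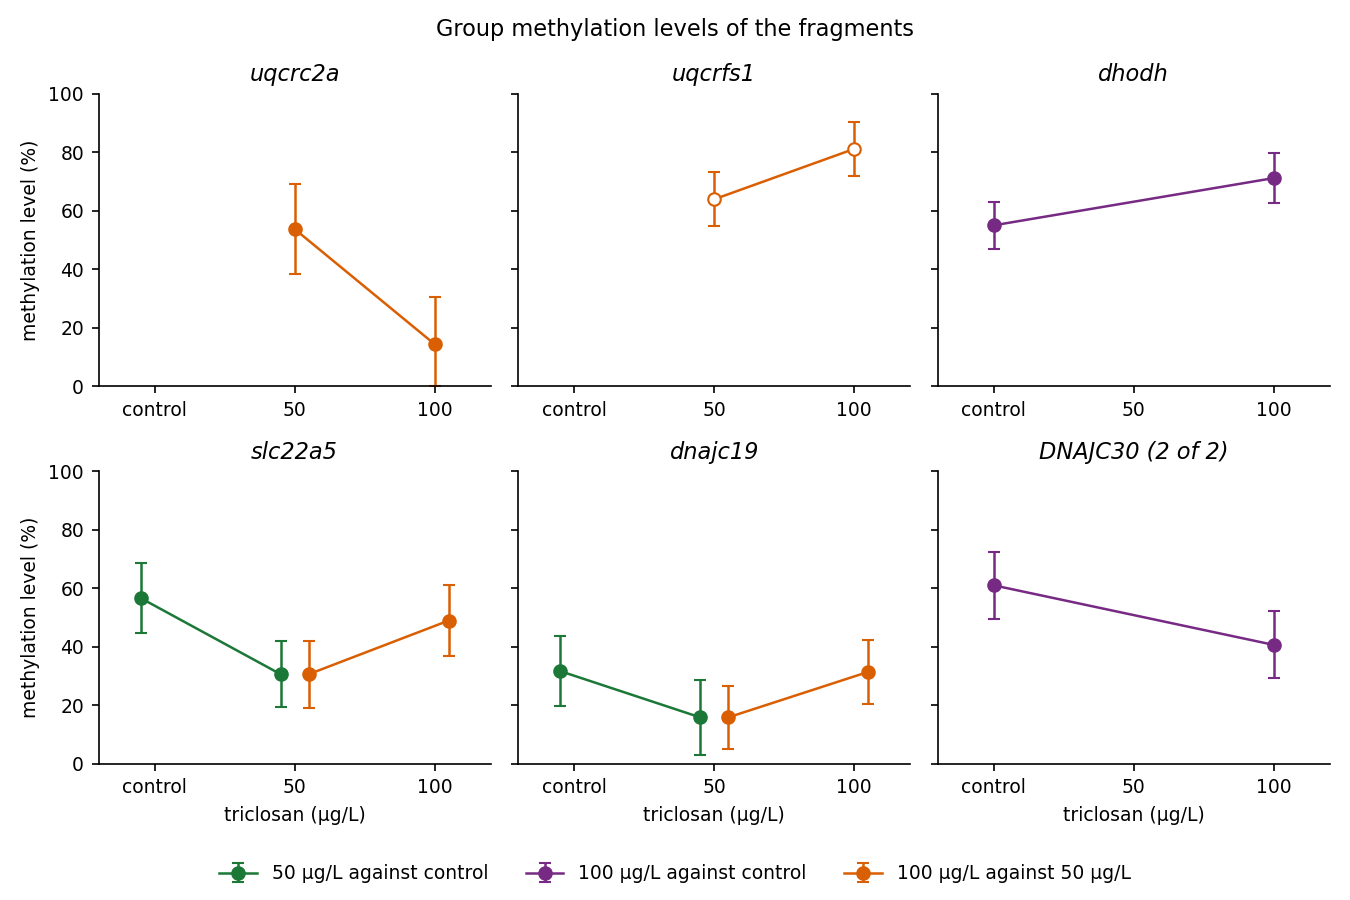
Methylation level (%) of each fragment against triclosan (control, 50 and 100 µg/L), with colours for the deposited table a value comes from and bars for the limits within which each library must lie if F was computed on unweighted means. The open symbols are uqcrfs1, found through the pathway lists, and uqcrc2a shows the widest step, with 14.4% at 100 µg/L and 53.7% at 50 µg/L.

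Carnitine uptake was represented by slc22a5, whose protein carries carnitine into cells across the plasma membrane. Its fragment (chromosome 21, 44306319 to 44306389) is 71 bp long with 5 CpG sites and is the only member fragment on an exon, 36.1% of the way along the gene from its lower coordinate. Levels in the authors' deposited tables were 56.6% in controls (4 libraries), 30.6% at 50 µg/L (3 libraries) and 48.9% at 100 µg/L (4 libraries). The intermediate dose was the lowest group. At 50 µg/L it was lower than in controls by a difference of -26.0 points (standard error 4.72, 95% interval -38.2 to -13.9), the fourth largest of the 55 differences listed for that comparison, with an unadjusted p of 0.00270 in the authors' deposited table. Each library used had at most 41.9% at 50 µg/L and at least 44.6% in controls, so these groups cannot overlap, as was so for 61.8% of the 55 listed fragments.

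Between both doses slc22a5 differed by 18.3 points (standard error 4.80, 95% interval 6.00 to 30.7), higher at 100 µg/L. Its unadjusted p of 0.0124 in the authors' deposited table lay above the threshold for its rank, 0.0111. The limits of single libraries at 100 µg/L (36.8% to 61.1%) and at 50 µg/L (19.1% to 42.1%) have a stretch in common, but both groups cannot reach it at once, so the libraries cannot overlap. Against control, 100 µg/L was 7.69 points lower (difference -7.69), and this fragment was not listed for that comparison. The standard error of this gap is at most 5.69 points from both F statistics, with an interval of -21.6 to 6.23 that includes 0. With the smallest standard error they allow the interval is -9.40 to -5.98, so the tables do not settle whether 100 µg/L differs from control here.

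Of the J-domain proteins, dnajc19 encodes a protein of the inner membrane whose yeast counterpart stimulates the import motor's Hsp70. The fragment assigned to it (chromosome 22, 40271009 to 40271140) is 132 bp long with 8 CpG sites and lies 249 kb outside the gene, so the name is a label of position. In the RefSeq gene table of assembly GRCz12tu the protein-coding neighbours of dnajc19 are sox2, a transcription factor gene of neural progenitors, and fxr1, an RNA-binding protein gene. Levels in the authors' deposited tables were 31.7% in controls (3 libraries), 15.9% at 50 µg/L (4 libraries) and 31.4% at 100 µg/L (4 libraries). As at slc22a5, the intermediate dose was the lowest group. Such an order is not particular to the members. In each of the 15 fragments listed in both tables that share 50 µg/L, that group was either the lowest, as at hspb1, or the highest, as at plxnb2b. At dnajc19 the levels in controls and at 100 µg/L were close to each other.

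The dnajc19 fragment was lower at 50 µg/L than in controls by a difference of -15.8 points (standard error 5.05, 95% interval -28.8 to -2.83), with an unadjusted p of 0.0260 in the authors' deposited table. It is the single entry of the 7 for which libraries of both groups could overlap, with limits of 3.07% to 28.7% at 50 µg/L and 19.6% to 43.7% in controls. This follows from its F of 9.8 and its library numbers. The other 6 are to be read against the 61.8%, 76.5% and 52.5% of all fragments listed for 50 µg/L against control, 100 µg/L against control and both doses that cannot overlap. Between both doses it was 15.5 points higher at 100 µg/L (standard error 3.62, 95% interval 6.67 to 24.4), and the p of 0.00516 was under the threshold for its rank, 0.00734. Both differences are close to the smallest that any table lists, 15 points. Its 100 µg/L level was 0.260 points below control (difference -0.260), with a standard error of at most 7.04 points and a 95% interval of -18.3 to 17.8, so gaps in either direction of that size cannot be told from 0. Fragments with an entry in both tables were chosen for a 50 µg/L level that differs from control and from 100 µg/L, and both tables use the same 50 µg/L pools, so the low middle values of slc22a5 and dnajc19 are no independent finding.

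DNAJC30 (2 of 2) is the deposited name of a copy of a J-domain gene whose human counterpart encodes a mitochondrial protein linked to complex I upkeep. Its fragment (chromosome 15, 2601615 to 2601689) is 75 bp long and the most CpG-dense of the 5, with 8 CpG sites, and lies 14.3 kb outside the gene. In the authors' deposited table it had 40.6% at 100 µg/L and 61.0% in controls, from 4 libraries each, a difference of -20.4 points (standard error 3.82, 95% interval -29.7 to -11.0). This was the third largest difference and the second lowest p, 0.00177, of the 17 entries for that comparison. The fragment was listed for no other comparison, and its level at 50 µg/L was not analysed here. Limits of single libraries were 29.2% to 52.1% at 100 µg/L and 49.5% to 72.4% in controls, and taken jointly the groups cannot overlap, as at dhodh. The deposited distance to its CpG island (2606239 to 2606980) is 5.29 kb, the shortest such distance among the 5. For the others it runs from 19.7 kb (uqcrc2a) to 232 kb (dnajc19), and 0 of the 5 are inside an island. These distances do not run between the nearest ends of fragment and island, so each gap is somewhat smaller. The share of all listed fragments inside an island was not computed, so nothing particular to the members is read from this.

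**Figure D2:**
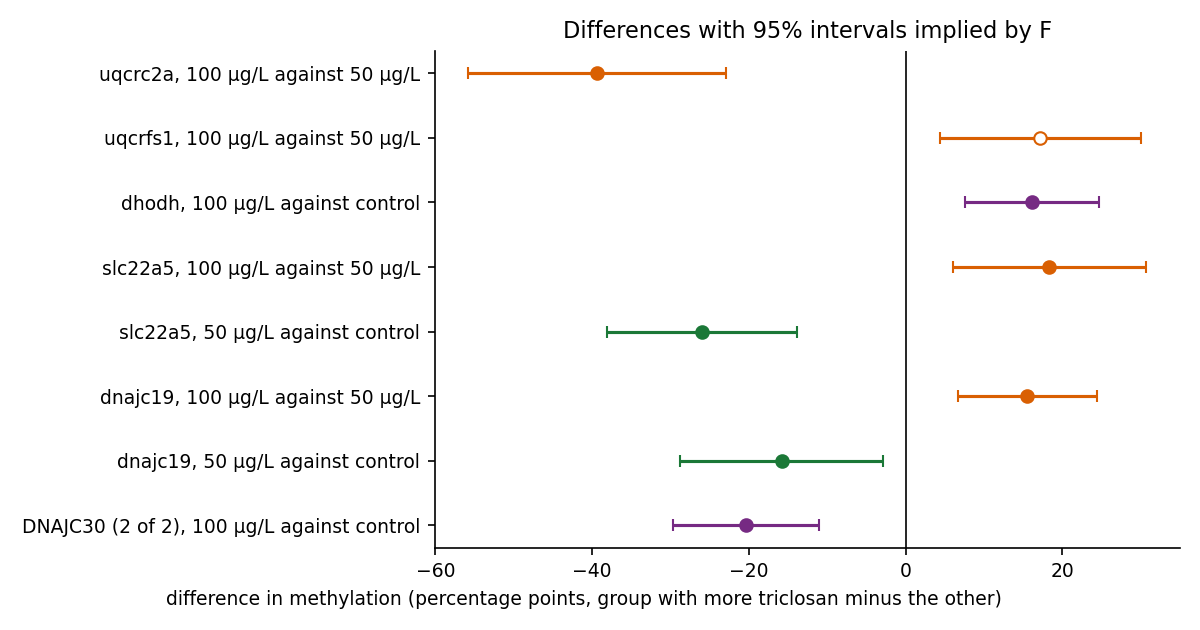
Difference in methylation (percentage points, group with more triclosan minus the other) for the 7 entries and for uqcrfs1 (open symbol), with 95% intervals from the standard error that F implies. Each interval lies wholly below or wholly above 0, which was fixed in advance, since every entry shown has an F test p under 0.05. That of dnajc19 at 50 µg/L against control, the entry with the highest p shown, comes closest to 0, at -2.83 points.

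Across the 7 entries, 3 were higher and 4 lower in the group with more triclosan. At 50 µg/L against control both member entries were lower, where 58.2% of the 55 listed fragments were lower and 41.8% higher. At 100 µg/L against control, dhodh was higher and DNAJC30 (2 of 2) lower, where 47.1% of the 17 were higher and 52.9% lower. Between both doses, slc22a5 and dnajc19 were higher and uqcrc2a lower at 100 µg/L, where 64.6% of the 99 were higher and 35.4% lower. Nothing particular to the members is read from these counts.

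In the table for both doses, 2 of the 3 member entries, uqcrc2a and dnajc19, had a p that did not exceed the threshold of its rank, as had 33.3% of the 99. Such thresholds result from multiplying the rank by 0.05 and dividing by 184 tests, or by 0.1 and 368 tests, and which applied is not stated. In all 99 entries the rank behind the threshold equalled the rank of p among the listed fragments. How the tests were chosen is not stated, so the adjusted values below need not account for every fragment assayed. With 184 tests, the Benjamini-Hochberg adjusted values computed from the authors' F test p values were 0.0218 for uqcrc2a, 0.0351 for dnajc19 and 0.0541 for slc22a5. With 368 tests they were 0.0437 for uqcrc2a, 0.0703 for dnajc19 and 0.108 for slc22a5, and 0.0627 or 0.125 for uqcrfs1 with 184 or 368 tests. The other tables give no threshold, so no adjusted value was computed for them.

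**Figure D3:**
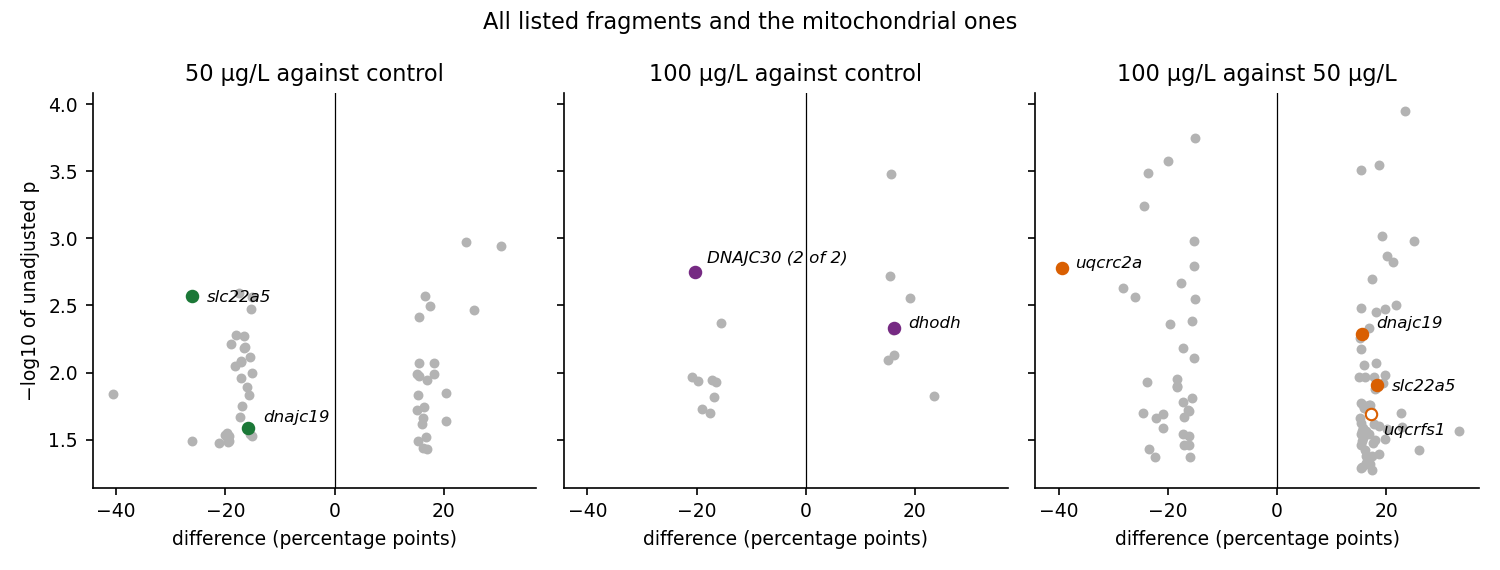
Difference (percentage points, horizontal) against −log10 of the authors' unadjusted p (vertical) for the 55, 17 and 99 listed fragments in grey, with the member fragments filled and uqcrfs1 open. The empty band around 0 is the limit of 15 points that every listed fragment passes, and uqcrc2a stands farthest to the left in its panel, at -39.3 points.

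Inside their genes lay 3 of the 5 fragments (uqcrc2a, dhodh and slc22a5), where 38.6% of the 153 listed fragments lay inside a gene. The table marks a gene end as 5′ or 3′ for each distance, but in all 171 entries the end marked 5′ was the lower coordinate and that marked 3′ the higher. The mark therefore does not give the direction of transcription, and the distance of these fragments from a promoter was not analysed here. The 5 fragments held 5 to 9 CpG sites, with 9.38 to 18.9 bp for each CpG, and the median over all 153 was 18.8 bp.

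**Figure D4:**
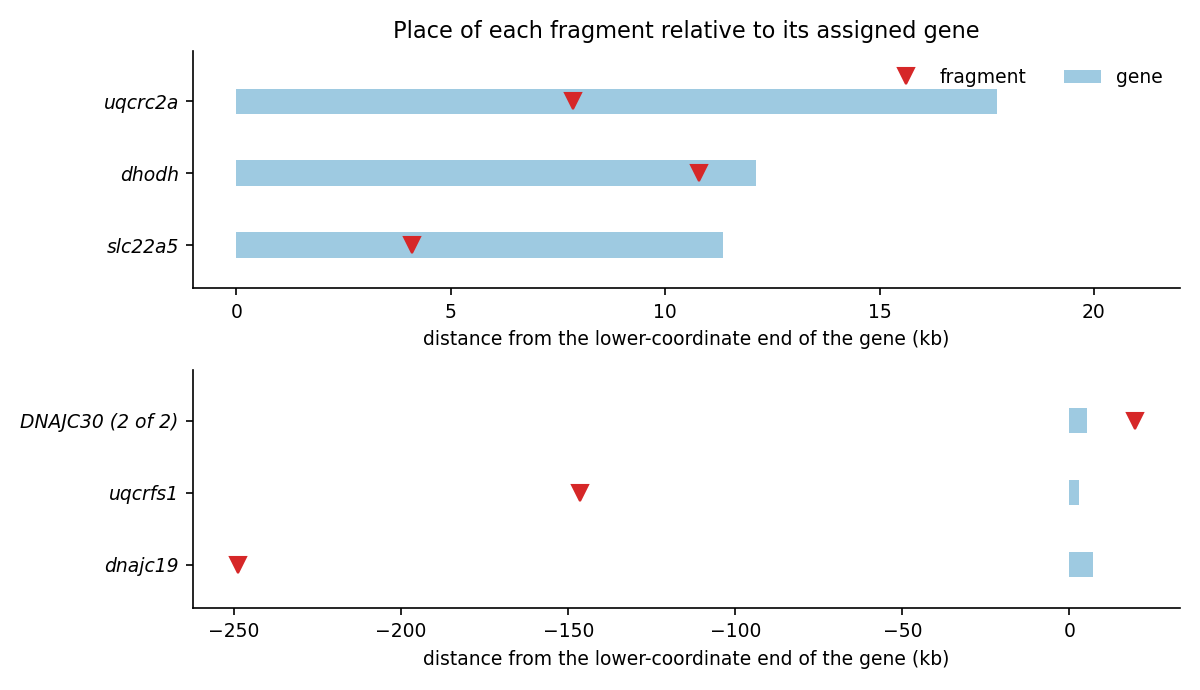
Place of each fragment (triangle) along a line in kb from the lower-coordinate end of its assigned gene (bar, to scale), with separate horizontal scales for fragments inside and outside genes. The uqcrc2a, dhodh and slc22a5 fragments fall within the bars, DNAJC30 (2 of 2) lies 14.3 kb beyond its gene, and dnajc19 and uqcrfs1 lie 249 and 147 kb away.

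Other genes of the same pathways were counted with 8 lists holding 179 symbols, of which 5 had a listed fragment, the 4 members uqcrc2a, dhodh, slc22a5 and dnajc19, and uqcrfs1. Complex III had 2 of 16 symbols, with 1 entry lower and 1 higher. The import list had 1 of 35 (dnajc19), the carnitine and fatty acid list 1 of 21 (slc22a5) and the pyrimidine list 1 of 11 (dhodh). Complex I had 0 of 41 symbols, complex II 0 of 5, complex IV 0 of 31 and ATP synthase 0 of 19. The number of assayed fragments near each gene was not analysed here, so these counts cannot be set against a background. The deposited name DNAJC30 (2 of 2) is not counted under the symbol dnajc30 of the import list. Current names can differ from those of the build, and 156 of the 179 symbols stand in the RefSeq gene table.

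Further listed fragments lay within 1 Mb of a member fragment in 2 places. On chromosome 21 a fragment assigned to pitx1, a homeobox gene of hindlimb and pituitary development, lay 189 kb from that of slc22a5 (44117220 to 44117287). In the authors' deposited table it had 34.6% at 100 µg/L and 55.4% at 50 µg/L, a difference of -20.8 points (standard error 6.63), opposite in direction to slc22a5. On chromosome 3 an intronic fragment of ENSDARG00000088258 lay 108 kb from that of uqcrc2a (59150641 to 59150774). In the authors' deposited table it had 68.3% at 100 µg/L and 52.7% at 50 µg/L, a difference of 15.6 points (standard error 5.05), opposite in direction to uqcrc2a. Both had p above the threshold for their rank.

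Fragments with the most similar levels were found by the largest gap over the group levels known. For slc22a5, over 3 groups and 14 other fragments, the nearest was that of the small heat shock gene hspb1, with 56.8% in controls, 37.2% at 50 µg/L and 52.6% at 100 µg/L, within 6.58 points, and the next were C1H11orf73 (22.6 points) and dnajc19 (24.95 points). C1H11orf73 had 34.0% in controls, 49.1% at 50 µg/L and 33.0% at 100 µg/L, so it was highest at 50 µg/L, where slc22a5 was lowest. For dnajc19 no fragment came closer than neurod6a at 21.7 points, before slc22a5 and hspb1 (25.1 points). With 9.96% in controls, 25.1% at 50 µg/L and 9.86% at 100 µg/L, neurod6a was highest at 50 µg/L, where dnajc19 was lowest, so this measure of levels does not follow direction. Over 2 groups and 16 other fragments, DNAJC30 (2 of 2) was nearest to nfe2l1a, with 41.3% at 100 µg/L and 61.0% in controls, followed by casz1 and cacna2d2, all within 3.38 points. The nearest to dhodh were CABZ01046949.1, a fragment of znf536 and dlgap4a, within 5.24 points. For uqcrc2a, over 2 groups and 98 other fragments, gal3st1 came nearest with 21.5% at 100 µg/L and 43.6% at 50 µg/L, 10.1 points away, before gc3 and BX511252.1.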

How the data were processed

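The authors deposited 3 tables of their own comparisons, 1 for each pair of groups, and these tables hold only listed fragments. Per the file headers, every fragment has group levels as a fraction from 0 to 1, an F statistic with its unadjusted p-value, library numbers and an assigned gene. Per the submitters' processing notes, coordinates refer to Zv9. Aligner, caller and coverage minimum are not given in the sources used. Depth is unknown, since neither coverage nor values per library were analysed here.

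Columns were read by position, since part of the header of the table for both doses lies 1 column left of its values. Fractions are printed as percent. The listed difference equalled the gap of levels within 0.01 points in 171 of 171 entries, and p recomputed from F differed by at most 0.126%. Standard errors are the difference divided by the square root of F, and 95% intervals use the t distribution with degrees of freedom as deposited. Limits of single libraries follow from the within-group sum of squares that F implies, and groups cannot overlap where that sum is smaller than any overlap would need. This calculation was chosen after seeing the data, and both calculations were tested on simulated data. The simulated differences were not selected by size or p, as the listed ones were. How often such intervals hold the true difference after selection was therefore not tested, nor was the layout of uqcrfs1 with 3 libraries each. All of it assumes that F came from unweighted levels on the scale printed. Whole ranks behind the threshold were accepted within 0.001.

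The members and lists were chosen with earlier results of these data known. Named are the 5 members, every fragment on a pathway list, the 3 fragments with most similar levels, and listed fragments within 1 Mb. The planned test over libraries needs values per library, so none was run. Of the 5 member names, 4 stand in the RefSeq gene table (GRCz12tu), and names are printed as deposited. Python 3.11.15, SciPy 1.17.1, pandas 2.3.3 and Matplotlib 3.10.9 were used.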

Additional observations from a re-analysis of the deposited data

Results flagged for a closer look

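The slc22a5 and dnajc19 fragments were listed both for 50 µg/L against control and for a difference between both doses, by the authors' F test. At slc22a5 the level at 100 µg/L was 18.3 points above that at 50 µg/L, and at dnajc19 it was 15.5 points above. The unadjusted p of slc22a5, 0.0124, lay above the threshold for its rank, 0.0111, and that of dnajc19, 0.00516, under its own, 0.00734. Being listed in both tables that share the 50 µg/L pools is how these fragments come to have 3 known levels, so the difference is no separate evidence. Of all fragments in the tables, 15 were listed in this way. In each of these 15 the level at 50 µg/L was either the lowest or the highest of the 3 groups.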

How the results depend on the processing

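The log-odds scale cannot turn a direction, and the normal distribution gives narrower intervals than the t distribution, so neither alternative checks the 7 differences. The order of differences changed on the log-odds scale, where the difference of dnajc19 between both doses (0.89) exceeded that of slc22a5 (0.78). The slc22a5 gap of -7.69 points between 100 µg/L and control has an interval without 0 under the narrowest standard error and with 0 under the widest. That of dnajc19 includes 0 under both. Standard errors between these 2 ends, which the F statistics also allow, were not tried. Of the 3 member entries between both doses, 2 passed the deposited threshold. An adjusted p at or under 0.05 with 184 tests restates that threshold, so the same 2 entries are no check. With 368 tests, 1 had an adjusted p at or under 0.05. The thresholds fit 368 tests only at a level of 0.1, however, which dnajc19 also passed (0.0703). Higher entries were 3 of 7, 2 of 5 with p at or under 0.01, and 2 of 4 inside genes. Matching names without case or copy number found the same 5 fragments. No paired analysis was possible because no values per library were analysed here, and leaving out a replicate or raising the coverage minimum was not run for the same reason. Read depth is unknown, and each level rests on 3 or 4 pools.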
